A study of Mus musculus with 12 samples.

Results

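The genes described here encode subunits of the last steps of mitochondrial oxidative phosphorylation: respiratory chain complex III, complex IV and the ATP synthase. They were chosen by symbol, as every row of the deposited table beginning with Uqcr, with Cox followed by 4, 5, 6, 7 or 8, or with Atp5, that reached 1 TPM (reads divided by gene length and scaled so that a library sums to 1000000) in at least 3 of 12 libraries. Such a symbol was found for 42 of the 18530 genes listed, and 41 met the level: 8 of complex III, 16 of complex IV and 17 of the ATP synthase. Cox7b2, just outside, had a mean of 0.221 TPM and reached 1 TPM in 0 libraries. Cox6b2, just inside, had a mean of 2.79 TPM and reached it in 10. A few of the 41 match by their letters while being known for other roles. Cox7a2l is known as a factor that joins complexes III and IV into supercomplexes, and Atp5sl and Atp5s are not counted among the structural subunits of the ATP synthase.

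Complex III passes electrons from ubiquinol to cytochrome c, complex IV passes them from cytochrome c to oxygen, and both move protons across the inner mitochondrial membrane. The ATP synthase lets the protons flow back through a rotating ring of c subunits and uses their energy to make ATP. Heart muscle, which contracts without rest, is among the tissues richest in these complexes, and several complex IV subunits have a heart and skeletal muscle isoform beside a widely expressed one. The subunits encoded in mitochondrial DNA were not analysed here.

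The RNA came from cardiomyocytes isolated from hearts of mdx mice, which lack dystrophin and are a model of Duchenne muscular dystrophy, and of mdx:Utrn+/- mice, which also carry a single working copy of Utrn, the gene of the dystrophin relative utrophin. All 4 groups are thus dystrophin-deficient, and no dystrophin-sufficient group enters any comparison. PB1046, a long-acting form of vasoactive intestinal peptide, or saline was given every other day between weeks 4 and 12, and cells were taken at week 14. Treated libraries are labelled as the high dose, in a protocol with doses of 0.75 mg/kg and 1.5 mg/kg. Each genotype had 3 poly-A libraries with saline and 3 with PB1046. The titles imply a mouse for each, the labels do not state it, and p-values measure only the spread between these libraries.

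Libraries held 7234100 to 25458194 reads recovered from the TPM values. Utrn was at 8.92, 9.24 and 11.3 TPM in mdx saline, 6.11, 17.1 and 18.3 in mdx PB1046, 3.32, 6.28 and 5.31 in mdx:Utrn+/- saline and 4.39, 9.92 and 6.21 in mdx:Utrn+/- PB1046. The Utrn levels of the genotypes did not overlap under saline and did under PB1046. Cardiomyocyte identity was visible in every library: 10 markers, among them Myh6 and Tnnt2, made up 9.47% to 13.0% of all TPM, while summed markers of endothelium (10 genes), macrophages (10), fibroblasts (8), smooth muscle and pericytes (8) and erythroid cells (7) each stayed at or below 0.18%. A drop in a cell type's share and a drop in RNA per cell cannot be told apart in such bulk samples. The libraries differed in ways that the groups do not explain. Rn45s, the ribosomal RNA precursor, was at 1039, 1708 and 1178 TPM in mdx saline replicate 1, mdx:Utrn+/- saline replicate 3 and mdx:Utrn+/- PB1046 replicate 3, and at 7611 to 42106 TPM in the other 9; mdx PB1046 held none of the 3. These 3 libraries were also the deepest, with 22546257 to 25458194 reads.

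The 41 genes were among the most abundant mRNAs of these cells. They held 20 of the 50 genes with the highest mean TPM, 26 of the top 100 and 36 of the top 500. Summed, they made up 9.90% to 14.3% of all TPM in a library. Levels in TPM are per gene length, and the means over 12 libraries are set beside each other below. Such an order is approximate, since the counter and gene lengths used are not given. Levels also shifted between libraries, as for Atp5e, from 2947 to 8780 TPM. In complex III Uqcrh, the acidic hinge protein that helps cytochrome c bind, had the highest mean (5080 TPM ± 737, SD over 12 libraries) and Uqcr11 the next (4752 ± 1070), while the core protein Uqcrc2 (623 ± 206) and the Rieske iron-sulfur protein Uqcrfs1 (1211 ± 394) had the lowest. The spread from highest to lowest was 8.16-fold in complex III. In complex IV Cox4i1 (7339 ± 1029) and the muscle isoform Cox6a2 (6883 ± 1557) led, and Cox4i2 (8.75 ± 4.87) and Cox6b2 (2.79 ± 1.47) closed the list. The ATP synthase was led by Atp5g3 (8359 ± 1423), which encodes the c subunit of the ring, and by the epsilon subunit Atp5e (6217 ± 1903). Its 2 lowest members were Atp5s (32.4 ± 8.14) and Atp5sl (38.5 ± 6.71), the pair that is not counted among the structural subunits, and every other ATP synthase gene had a mean of at least 691 TPM.

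Where a subunit exists as isoforms, the same isoform dominated in every library. Cox4i1 made up 99.66% to 99.95% of the Cox4i1 and Cox4i2 TPM; Cox4i2 is the isoform known from lung and hypoxia. Cox6b1 made up 99.78% to 99.98% beside Cox6b2, a form known from testis. The heart and muscle isoform Cox6a2 made up 94.5% to 97.7% beside Cox6a1, and Cox8b 86.7% to 94.6% beside Cox8a. Cox7a1 was less dominant over its widely expressed partner Cox7a2, at 70.2% to 80.3%. Of the 3 genes that encode the same mature c subunit, Atp5g3 gave 62.7% to 78.5%, Atp5g1 16.6% to 28.3% and Atp5g2 4.76% to 9.03%.

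The promoters of Cox8b with Cox8a and of Atp5g3 with Atp5g1 are shown because these partners, although they encode the same subunit, stood at different levels and differed in how they varied between libraries. Each window is 250 bases before to 50 bases after the RefSeq start site (GRCm38.p6), 5′ to 3′ on the gene's strand. They lie at chr7:140900397-140900696 (minus strand, Cox8b), chr19:7217567-7217866 (minus, Cox8a), chr2:73911277-73911576 (minus, Atp5g3) and chr11:96075582-96075881 (minus, Atp5g1). Capitals mark matches to the motifs named after the sequences, on either strand, other than CCAAT.
Cox8b: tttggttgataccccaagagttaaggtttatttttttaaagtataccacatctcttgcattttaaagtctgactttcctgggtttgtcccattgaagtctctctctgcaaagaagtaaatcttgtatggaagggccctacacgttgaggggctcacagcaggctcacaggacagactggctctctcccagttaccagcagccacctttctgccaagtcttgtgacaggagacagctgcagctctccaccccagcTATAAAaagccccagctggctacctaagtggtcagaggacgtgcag
Cox8a: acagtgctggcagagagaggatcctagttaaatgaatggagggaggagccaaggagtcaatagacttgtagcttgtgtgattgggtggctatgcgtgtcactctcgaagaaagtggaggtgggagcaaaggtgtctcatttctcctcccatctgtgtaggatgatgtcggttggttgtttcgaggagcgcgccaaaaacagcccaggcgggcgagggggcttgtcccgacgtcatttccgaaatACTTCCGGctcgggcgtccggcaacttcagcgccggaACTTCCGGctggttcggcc
Atp5g3: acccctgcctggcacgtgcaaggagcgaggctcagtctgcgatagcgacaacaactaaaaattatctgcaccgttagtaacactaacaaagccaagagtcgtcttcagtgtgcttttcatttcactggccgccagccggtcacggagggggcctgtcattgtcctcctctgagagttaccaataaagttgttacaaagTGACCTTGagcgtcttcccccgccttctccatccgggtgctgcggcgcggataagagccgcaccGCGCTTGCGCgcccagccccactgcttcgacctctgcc
Atp5g1: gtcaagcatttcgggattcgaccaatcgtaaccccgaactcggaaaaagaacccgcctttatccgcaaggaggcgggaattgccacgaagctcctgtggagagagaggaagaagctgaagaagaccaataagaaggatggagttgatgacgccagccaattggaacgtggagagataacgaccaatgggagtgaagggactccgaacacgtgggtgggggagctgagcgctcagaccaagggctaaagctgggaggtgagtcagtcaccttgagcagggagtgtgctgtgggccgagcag
In Cox8b the capitals are a TATAAA starting at base 5 after the start site. In Cox8a they are a pair of ETS matches (CCGGAAGT, the core bound by GABP) on the other strand, 6 bases before the start site and at base 32 after it. In Atp5g3 they are an NRF1 match at base 13 after the start site and an ERR match (CAAGGTCA) on the other strand, 52 bases before it. Atp5g1 held no match to the marked motifs, and none of the marked matches overlap. CCAAT, which is not marked, was found on either strand in Cox8a, Atp5g3 and Atp5g1. RefSeq windows were found for 33 of the 41 genes. NRF1, a factor known for driving nuclear genes of the respiratory chain, had a match in 8 of the 33 (24.2%), against 11.51% of 9837 tested genes with a window. The ETS motif was found in 4 (12.1%, against 9.06%), ERR in 2 (6.1%, against 1.33%), YY1 (AAGATGGC) in 4 (12.1%, against 5.23%), MEF2 in 1 (3.0%, against 3.9%), TATAAA in 2 (6.1%, against 8.94%) and CCAAT, the NF-Y core, in 18 (54.5%, against 42.61%). A match describes letters in this window and is not evidence of binding.

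In mdx mice, subunit mRNAs of each of the 3 complexes took a smaller mean share of all TPM after PB1046 than after saline, and no gene passed the test. The 41 genes together took 13.2% ± 1.08 (SD, n = 3) of all TPM in mdx saline and 10.9% ± 1.42 in mdx PB1046. In mdx:Utrn+/- they took 13.0% ± 1.03 with saline and 13.2% ± 1.09 with PB1046. By library the share was 12.1%, 13.2% and 14.3% in mdx saline, 12.5%, 10.2% and 9.90% in mdx PB1046, 13.3%, 11.9% and 13.9% in mdx:Utrn+/- saline and 14.3%, 12.2% and 13.0% in mdx:Utrn+/- PB1046. In this sum mdx PB1046 replicates 2 and 3 were the lowest of the 12, and replicate 1 of that group lay within the range of mdx saline. The complex IV share was 4.44%, 4.72% and 5.31% in mdx saline and 4.38%, 3.56% and 3.47% in mdx PB1046, so all 3 treated libraries were below the saline ones. The shares of complex III and of the ATP synthase overlapped between these groups.

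**Figure D1:**
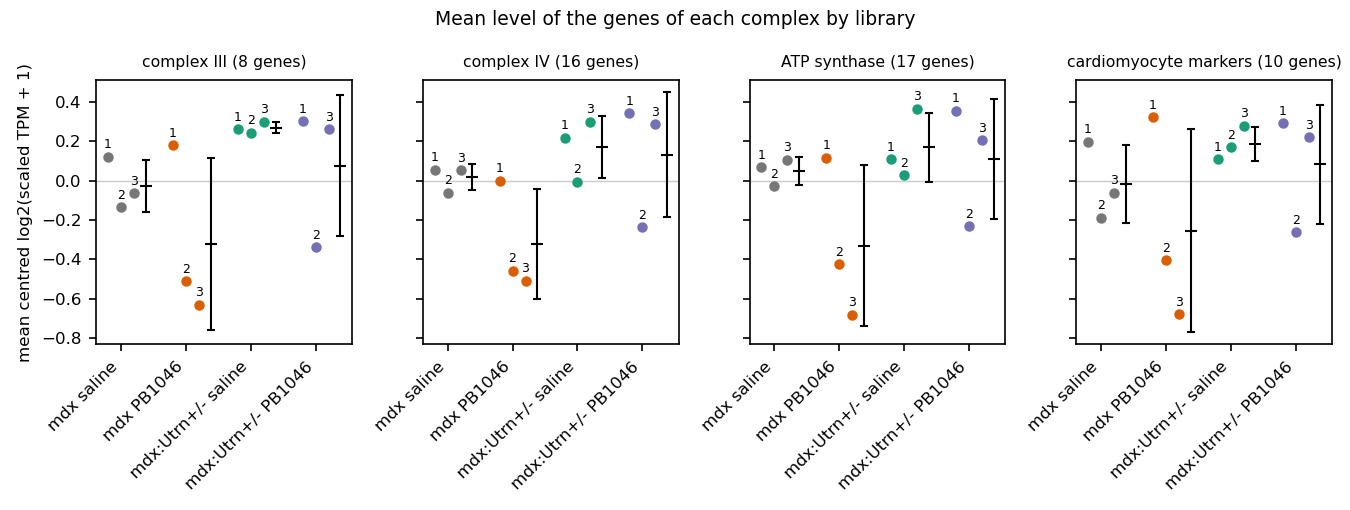
Mean centred log2 level (y axis, log2 of scaled TPM + 1, each gene minus its mean over 12 libraries) of the genes of each complex and of 10 cardiomyocyte markers, by group (x axis). Points are libraries with their replicate number and bars are mean ± SD, n = 3; replicates 2 and 3 of mdx PB1046 and replicate 2 of mdx:Utrn+/- PB1046 are the 3 lowest libraries in every panel.

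For testing, TPM were divided by a trimmed-mean scaling factor per library, which ranged from 0.828 to 1.309, and log2(scaled TPM + 1) was fitted with limma over 12798 genes with at least 1 TPM in 3 libraries. A log2 change below is a difference of group means on that scale, given with its standard error (SE), and a scaled mean is a mean on it. Counts of genes with a higher or lower mean depended on this scaling. For the 41 genes those in unscaled TPM are given beside them. The difference between the 2 responses to PB1046 was counted on the scaled level alone. For the other gene lists the counts are on the scaled level, and unscaled means are described where they differ. With Benjamini-Hochberg adjustment over all genes, 0 of the 41 genes had an adjusted p under 0.05 in any of 5 contrasts, against 0.0% of all genes tested in each, and limma-voom on the recovered reads also called 0. The median SE of the 41 changes was 0.30 in the 4 contrasts of 2 groups, so the typical 95% interval reached 0.66 to either side of the estimate. The authors' deposited table gives a false discovery rate under 0.05 to 0 of the 41 genes in any of its 6 comparisons, and the smallest is 0.732. At an unadjusted p under 0.05 the response to PB1046 in mdx held 6 of the 41 lower, against 1.24% of all genes tested, and 1 higher, against 1.84%. The same response in mdx:Utrn+/- held 0 (background 1.09% lower and 0.867% higher). Between genotypes under saline there were 0 (2.32% higher, 1.7% lower), and under PB1046 there were 4 higher in mdx:Utrn+/- (0.86% of all genes) and 0 lower (0.797%).

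**Figure D2:**
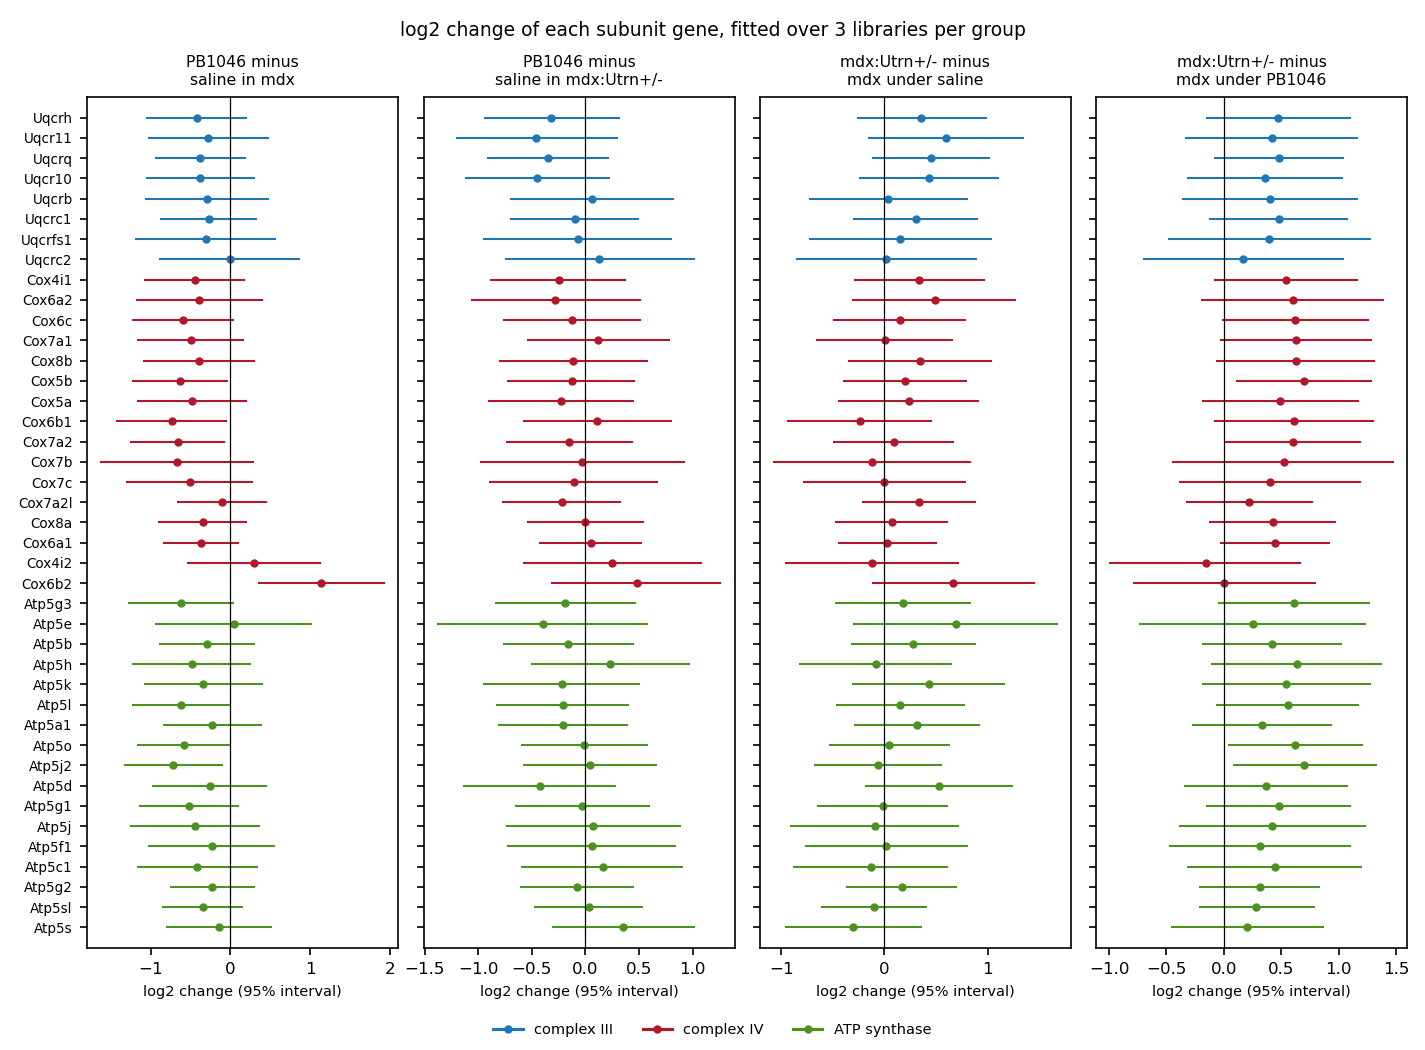
Fitted log2 change (x axis, point) with its 95% interval (line) for each of the 41 genes (y axis, by complex and then by mean TPM), in 4 contrasts of 3 against 3 libraries. Most points lie left of 0 for PB1046 in mdx (38 of 41) and right of 0 for mdx:Utrn+/- against mdx under PB1046 (40 of 41), and most intervals cross 0.

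In complex III all 8 genes had a lower scaled mean after PB1046 in mdx, where 50.5% of all genes tested did, with a median log2 change of -0.30 against 0.00 over all genes. In unscaled TPM 7 of the 8 means were lower, against 27.4% of all genes, and that of Uqcrc2 was higher (672 against 644 TPM, log2 change on the scaled level -0.01). None had an unadjusted p under 0.05. The lowest p-values belonged to Uqcrh (-0.42, SE 0.29), the small subunit Uqcrq (-0.38, SE 0.26) and Uqcr10 (-0.38, SE 0.31), each with an adjusted p of 0.999. Uqcrh (chr4:116066965-116075070, minus strand) was at 4426, 5716 and 5558 TPM in mdx saline, 5200, 3705 and 4248 in mdx PB1046, 6160, 5432 and 5163 in mdx:Utrn+/- saline and 5939, 4750 and 4663 in mdx:Utrn+/- PB1046. Its groups overlapped in TPM in every pair. The catalytic Rieske protein Uqcrfs1 was at 1977, 966 and 942 TPM in mdx saline, 1191, 1110 and 998 in mdx PB1046, 922, 976 and 1585 in mdx:Utrn+/- saline and 1003, 924 and 1937 in mdx:Utrn+/- PB1046. Its high values were the 3 libraries with little Rn45s, in 3 different groups, and the other 9 stayed between 922 and 1191 TPM. Complex III was the complex with the highest median in mdx:Utrn+/- over mdx under saline, at 0.33 (all genes 0.03), with 8 of 8 scaled means higher where 53.4% of all genes were. In unscaled TPM 5 of the 8 means were higher, against 25.8% of all genes, and those of Uqcrb, Uqcrc2 and Uqcrfs1 were lower. For Uqcrq, at 3125, 4436 and 4513 TPM in mdx saline and 4943, 4404 and 4187 in mdx:Utrn+/- saline, the scaled levels of these groups did not overlap (log2 change 0.45, SE 0.26, adjusted p = 0.854). As deposited, without scaling, they did. The response to PB1046 in mdx:Utrn+/- had a median of -0.21 in complex III (all genes -0.01), and 6 of 8 scaled means were lower, against 51.6% of all genes. In unscaled TPM 4 of 8 were lower, against 28.9%.

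On mm10, as deposited, the complex IV genes described next lie at chr1:36691487-36693388 (Cox5b, plus strand), chr7:30616974-30626151 (Cox6b1, minus), chr9:79755241-79759853 (Cox7a2, minus) and chr7:4751792-4753094 (Cox6b2, minus). Values are given per gene, and over which of its bases reads were counted is not given. In complex IV 14 of 16 genes had a lower scaled mean after PB1046 in mdx, with a median of -0.47, and 13 had a lower mean in unscaled TPM. Cox5b, a peripheral subunit on the matrix side, was at 3934, 4280 and 4263 TPM in mdx saline, 3403, 2857 and 2800 in mdx PB1046, 3644, 3354 and 5121 in mdx:Utrn+/- saline and 4412, 3809 and 4146 in mdx:Utrn+/- PB1046. Every mdx PB1046 library was below every mdx saline library, and the mdx:Utrn+/- groups overlapped. The log2 change in mdx was -0.63 (SE 0.27, unadjusted p = 0.0376, adjusted p = 0.999). Cox6b1, which helps join the complex into dimers, was at 3599, 3090 and 3021 TPM in mdx saline, 2239, 2306 and 1979 in mdx PB1046, 1975, 1675 and 3556 in mdx:Utrn+/- saline and 2485, 2424 and 3629 in mdx:Utrn+/- PB1046. Its mdx groups did not overlap either (log2 change -0.74, SE 0.31, unadjusted p = 0.0378, adjusted p = 0.999), and the mdx:Utrn+/- groups overlapped. Cox7a2, the widely expressed isoform of subunit 7a, was at 1634, 2297 and 2392 TPM in mdx saline and 1648, 1367 and 1410 in mdx PB1046, and these groups overlapped (log2 change -0.66, SE 0.27, unadjusted p = 0.0288).

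Cox6b2 had a higher mean after PB1046 on both scales. It was at 1.61, 1.16 and 0.676 TPM in mdx saline, 3.46, 5.09 and 4.05 in mdx PB1046, 2.56, 3.63 and 0.622 in mdx:Utrn+/- saline and 3.33, 3.02 and 4.23 in mdx:Utrn+/- PB1046. Every mdx PB1046 library was above every mdx saline library, while mdx:Utrn+/- groups overlapped. The log2 change in mdx was 1.14 (SE 0.36, unadjusted p = 0.00800, adjusted p = 0.999), on a scale whose added 1 TPM shrinks changes of so low a gene. The level rests on 5 to 36 reads per library. How any reads that match both Cox6b2 and Cox6b1 were counted is not given in the sources used here. Cox4i2, the other complex IV gene with a higher scaled mean after PB1046 in mdx, was at 6.73, 9.08 and 7.23 TPM in mdx saline and 3.98, 13.9 and 21.5 in mdx PB1046 (log2 change 0.30, SE 0.38, adjusted p = 0.999). The treated libraries lay on both sides of the saline ones. Cox7a2l had a higher mean in unscaled TPM (840 against 814) and not on the scaled level. In mdx PB1046, 3 of the 16 complex IV genes lay below all mdx saline libraries on the scaled level (Cox5b, Cox6b1 and Cox6a1) and 1 above (Cox6b2), and over all 41 genes 6 lay below, where 4.31% of all genes tested did, and 1 above, where 4.0% did. In unscaled TPM 7 of the 41 lay below (Cox5a, Cox5b, Cox6b1, Cox6c, Cox7b, Atp5j2 and Atp5l), against 2.06% of all genes, and 1 above (Cox6b2), against 6.56%.

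In the ATP synthase 16 of 17 genes had a lower scaled mean after PB1046 in mdx, with a median of -0.35, and 15 had a lower mean in unscaled TPM. Atp5j2, subunit f of the membrane part (chr5:145183706-145191592, minus strand), was at 3889, 4005 and 4497 TPM in mdx saline, 3180, 2820 and 2457 in mdx PB1046, 3264, 2680 and 4077 in mdx:Utrn+/- saline and 4158, 3441 and 4006 in mdx:Utrn+/- PB1046. The mdx groups did not overlap (log2 change -0.72, SE 0.28, unadjusted p = 0.0247, adjusted p = 0.999). Atp5l, subunit g of the membrane part, had a mean of 5075 TPM ± 318 (SD, n = 3) in mdx saline and 3742 ± 721 in mdx PB1046 (-0.62, SE 0.28, unadjusted p = 0.0490). Atp5o, the stalk protein OSCP that ties the catalytic head to the membrane part, had means of 4459 ± 815 and 3310 ± 346 (-0.58, SE 0.27, unadjusted p = 0.0488). Both overlapped on the scaled level. In the catalytic head the alpha subunit Atp5a1 had means of 4099 ± 209 in mdx saline and 3962 ± 699 in mdx PB1046 (-0.23, SE 0.28), and the beta subunit Atp5b, which carries the catalytic sites, 6047 ± 728 and 5533 ± 817 (-0.30, SE 0.27). Atp5e, the epsilon subunit (chr2:174461075-174464101, minus strand), was the member without a lower scaled mean (0.04, SE 0.45). In unscaled TPM Atp5s also had a higher mean (36.0 against 34.7). The values of Atp5e were 2947, 6044 and 7523 TPM in mdx saline, 7155, 5323 and 5348 in mdx PB1046, 8780, 8156 and 4525 in mdx:Utrn+/- saline and 8293, 6932 and 3577 in mdx:Utrn+/- PB1046. The 3 lowest values were the 3 libraries with little Rn45s.

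The genotypes were also set against each other under PB1046, in a comparison that shares the mdx PB1046 libraries with the response in mdx. In mdx:Utrn+/- PB1046 40 of 41 scaled means were above those of mdx PB1046, with medians of 0.41 in complex III, 0.53 in complex IV and 0.42 in the ATP synthase. For all genes tested 52.2% were above. In unscaled TPM 36 of the 41 means were above, against 20.5% of all genes, and those of Uqcrc2, Cox4i2, Cox6b2, Cox7a2l and Atp5s were below. The 4 genes with an unadjusted p under 0.05 were Cox5b (0.70, SE 0.27), Atp5j2 (0.70, SE 0.28), Atp5o (0.62, SE 0.27) and Cox7a2 (0.60, SE 0.27). All had an adjusted p of 1.00. On the scaled level 0 of the 41 genes had groups that did not overlap, against 2.51% of all genes higher and 3.16% lower. In unscaled TPM 6 lay above all mdx PB1046 libraries (Cox5b, Cox6b1, Cox7a1, Cox7a2, Atp5j2 and Atp5o), against 0.922% of all genes, and 0 below, against 6.33%. Under saline the medians of mdx:Utrn+/- over mdx were 0.12 in complex IV and 0.05 in the ATP synthase, and without scaling they turned to -0.15 and -0.22, where the median of all genes was -0.20. The mean share of TPM was 4.67% in mdx:Utrn+/- saline and 4.82% in mdx saline for complex IV, and 5.88% and 6.08% for the ATP synthase. In the comparison under saline 4 of the 41 genes lay above all mdx libraries on the scaled level (Uqcrh, Uqcrq, Cox4i1 and Atp5a1) and 0 below, against 5.5% and 4.09% of all genes. In unscaled TPM 0 did in either direction (0.703% higher and 15.1% lower of all genes). PB1046 in mdx:Utrn+/- gave medians of -0.11 and -0.03, with 0 genes that did not overlap in either direction on the scaled level (2.89% and 2.75% of all genes) or in unscaled TPM (5.14% and 1.06%). Without scaling these medians were 0.07 and 0.15, where that of all genes was 0.15. Whether the genotypes differ in their response to PB1046 was tested directly. The difference (mdx:Utrn+/- minus mdx) was positive for 34 of 41 genes, against 48.2% of all genes, with medians of 0.13, 0.38 and 0.41 in complex III, complex IV and the ATP synthase. It had an unadjusted p under 0.05 for 0 genes, against 1.08% of all genes higher and 1.17% lower. Atp5j2 (0.76, SE 0.40) and Cox6b1 (0.85, SE 0.45) had the smallest p-values, with an adjusted p of 0.999, so a response particular to mdx was not shown.

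Libraries of a group differed. The mean centred log2 level of the 41 genes was -0.45 in mdx PB1046 replicate 2, -0.60 in replicate 3 and -0.25 in mdx:Utrn+/- PB1046 replicate 2, and between -0.06 and 0.34 in the other 9. The cardiomyocyte markers stood at -0.41, -0.68 and -0.26 in the same 3 libraries and between -0.19 and 0.32 in the others. The difference between the 2 scores stayed between -0.24 and 0.13. Those 3 libraries also had the highest scaling factors (1.182 to 1.309) and held 3 of the 4 highest endothelial marker scores. Among the markers, 9 of 10 of cardiomyocytes had lower scaled means after PB1046 in mdx (median -0.25), while all 10 of macrophages (0.42), all 8 of fibroblasts (0.55), 7 of 8 of smooth muscle and pericytes (0.46) and all 7 of erythroid cells (1.91) had higher ones; none was at 0 in any library and 0 passed the adjusted test. The 7 erythroid genes are not 7 separate measurements. Hbb-bt and Hbb-b2 had the same value in every library. Hba-a1 with Hba-a2, and Hbb-bs with Hbb-b1, kept nearly the same ratio in every library. The summed erythroid share may thus count the same globin reads repeatedly. Of the 10 endothelial markers 8 were lower (-0.13). In unscaled TPM the means of all 10 were higher in mdx PB1046, where 72.6% of all genes tested were. So were those of all 8 smooth muscle and pericyte markers, and of Mybpc3, Pln and Atp2a2 among the cardiomyocyte markers. Summed cardiomyocyte markers made up 12.1% to 12.5% of TPM in mdx saline and 9.47% to 12.9% in mdx PB1046. Over the same groups endothelial markers made up 0.0350% to 0.0765% and 0.0205% to 0.135%, macrophage markers 0.00816% to 0.0422% and 0.0160% to 0.0533%, fibroblast markers 0.0227% to 0.0677% and 0.0511% to 0.102%, smooth muscle and pericyte markers 0.0164% to 0.0242% and 0.0238% to 0.0414%, and erythroid markers 0.00323% to 0.0167% and 0.0122% to 0.180%. With the cardiomyocyte marker score as a term in the fit, an alternative added after seeing the data, the medians for PB1046 in mdx were -0.08 in complex III, -0.26 in complex IV and -0.19 in the ATP synthase. The subunit genes are short: their median length, inferred from the TPM values, was 659 bases, and that of the tested genes 2790. With each library's trends over gene length and level taken off, the medians were 0.05, -0.06 and -0.10. That step removes any change shared by short, abundant genes, whatever its source. Without mdx PB1046 replicate 1 the medians were -0.56, -0.73 and -0.60, and without replicate 3 they were -0.16, -0.35 and -0.19. The part of cell makeup, length and single libraries in the difference was not tested.

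**Figure D3:**
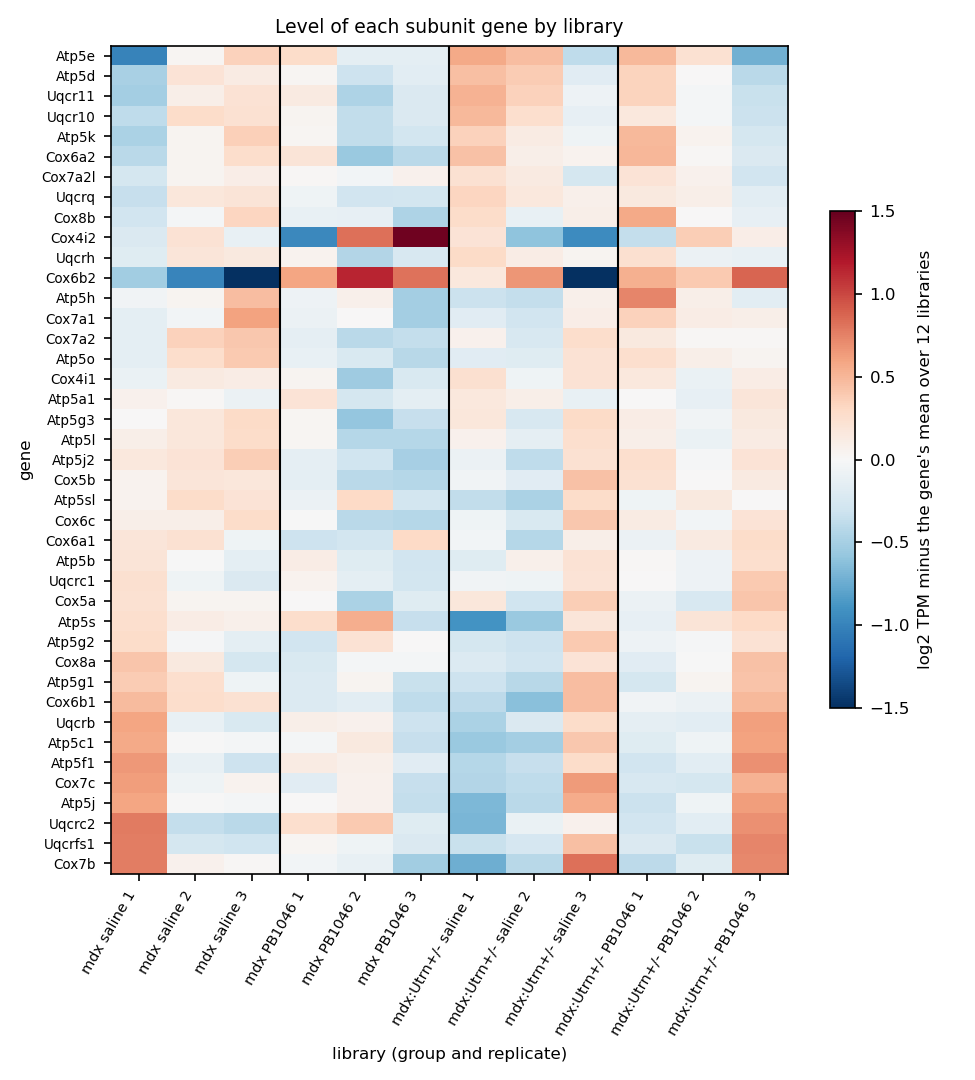
log2 TPM of each of the 41 genes (rows) minus its mean over the 12 libraries (columns, grouped by treatment and genotype); colour runs from -1.5 (blue) to 1.5 (red). Rows are ordered by their mean difference in the 3 libraries with Rn45s under 2000 TPM, where Atp5e at the top is low and Cox7b at the bottom is high.

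Within the complexes, a second pattern set subunits against each other in the 3 libraries with Rn45s under 2000 TPM. These were compared with the other 2 libraries of their own group on the scaled level, a split made after the values were seen and given as a description. Of the 41 genes 17 were higher in all 3 (41.5%, against 20.9% of all genes tested), 10 were lower in all 3 (24.4%, against 17.9%) and 14 differed in sign. The highest was Cox7b, a small membrane subunit of complex IV (chrX:106015700-106022450, plus strand), with log2 differences of 0.80, 1.34 and 1.06. It was at 2148, 1319 and 1274 TPM in mdx saline, 1231, 1167 and 883 in mdx PB1046, 762, 948 and 2233 in mdx:Utrn+/- saline and 964, 1115 and 2080 in mdx:Utrn+/- PB1046. The 3 libraries were the highest of the 12. The lowest was Atp5e, with differences of -1.12, -0.95 and -1.02. Complex III divided evenly: Uqcrfs1 (mean of the 3 differences 0.96), Uqcrc2 (0.87), Uqcrb (0.74) and Uqcrc1 (0.38) were higher in all 3, and the small subunits Uqcr11 (-0.52), Uqcr10 (-0.48), Uqcrq (-0.29) and Uqcrh (-0.21) lower in all 3. In the ATP synthase head the gamma subunit Atp5c1 (0.78) and the beta subunit Atp5b (0.30) were higher in all 3, the delta subunit Atp5d (-0.58) and Atp5e were lower, and the alpha subunit Atp5a1 (0.06) differed in sign. In the stalk Atp5f1 (0.84, subunit b) and Atp5j (0.87, coupling factor 6) were higher in all 3, while Atp5o (-0.04) and Atp5h (-0.13, subunit d) differed in sign. Among isoforms the muscle forms Cox6a2 (-0.38) and Cox8b (-0.25) were lower and their partners Cox6a1 (0.25) and Cox8a (0.51) higher. The third such pair did not show this: Cox7a1 (-0.06) and Cox7a2 (-0.05) both differed in sign. Of the c subunit genes Atp5g1 (0.58) and Atp5g2 (0.46) were higher where Atp5g3 (0.10) differed in sign. Cox8b with Cox8a and Atp5g3 with Atp5g1 are the pairs whose promoters are printed above.

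Base composition and gene length were set beside these differences. Over the 40 genes with a GENCODE transcript the rank correlation of the mean difference with GC content was -0.52, given as a description since genes share libraries, and over 12216 tested genes it was -0.24. By complex it was -0.62 in complex III (8 genes), -0.30 in complex IV (16) and -0.50 in the ATP synthase (16). With gene length the rank correlation was 0.42 over the 41 genes, 0.83 in complex III, -0.14 in complex IV and 0.41 in the ATP synthase, and -0.01 over all genes tested. The median GC content was 50.2% for the 17 genes that were higher and 54.9% for the 10 that were lower. Cox7b had 42.0% and Atp5d 61.1%, while Atp5e, the lowest, had 54.6%. The 3 libraries share low Rn45s and high depth and come from 3 groups. The part of depth, GC content and length in the pattern was not tested. Since mdx PB1046 held none of them, each contrast with mdx PB1046 sets a group with such a library against one without. Without these 3 libraries, an alternative added after seeing the data, the medians for PB1046 in mdx were -0.30, -0.45 and -0.39 in complex III, complex IV and the ATP synthase.

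**Figure D4:**
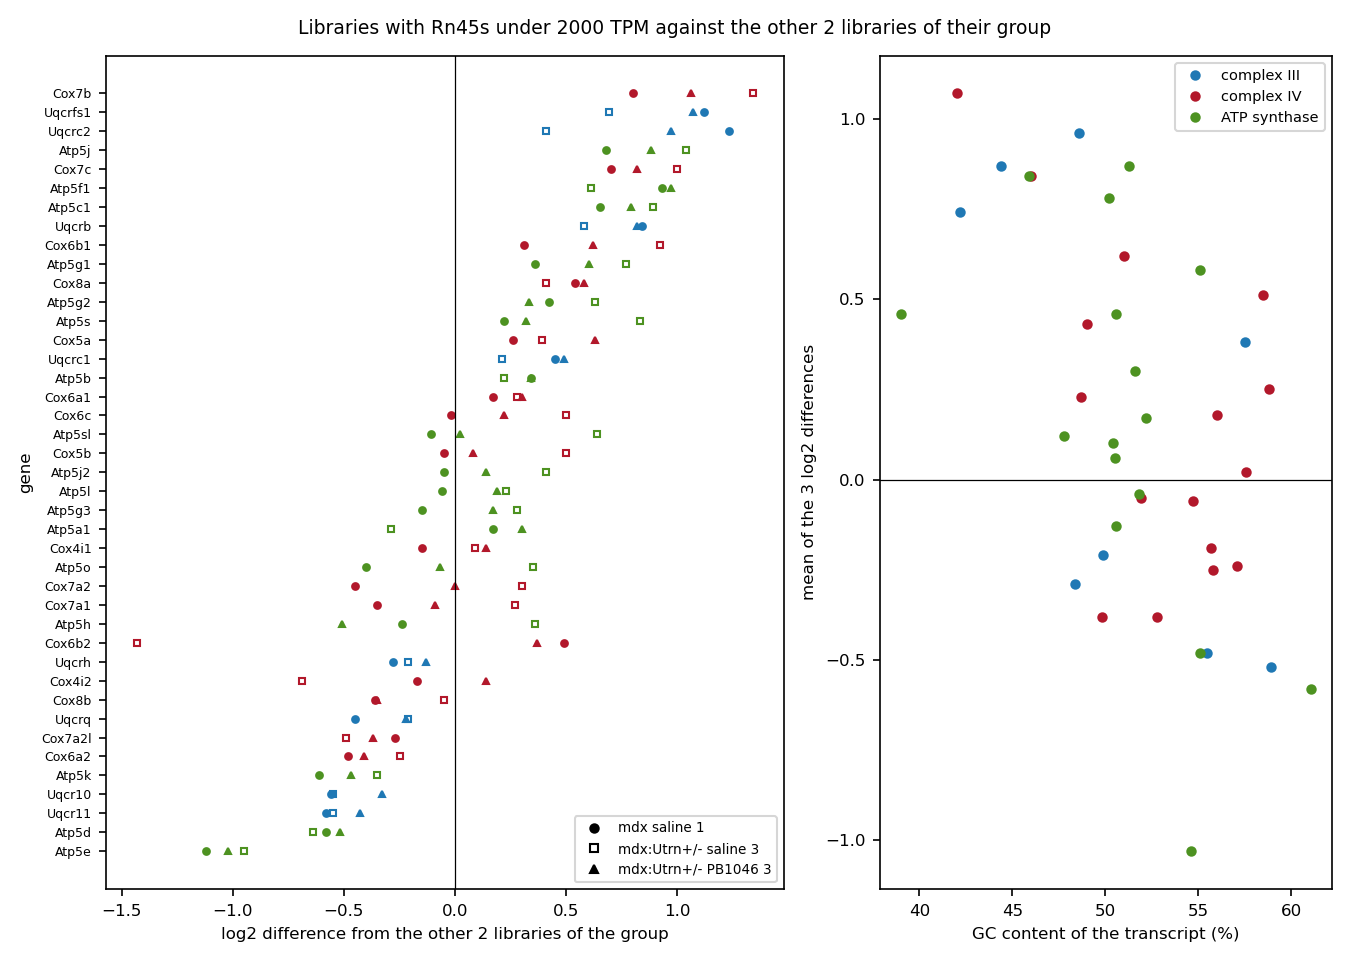
Left, log2 difference (x axis) of each of the 3 libraries with Rn45s under 2000 TPM from the mean of the other 2 libraries of its group, for each of the 41 genes (y axis). Right, the mean of these 3 differences (y axis) against the GC content of the transcript (x axis, percent) for 40 genes; genes with less GC tended to be higher in these libraries.

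Ratios between isoforms do not depend on library scaling and were tested over all 12 libraries, permuting treatment within genotype or genotype within treatment (two-sided exact permutation test, 400 relabelings, smallest possible p = 0.005, adjusted over 8 tests). None passed. The log2 ratio of Cox7a1 to Cox7a2, the muscle to the widely expressed isoform, was 1.62, 1.23 and 1.82 in mdx saline, 1.66, 2.03 and 1.47 in mdx PB1046, 1.39, 1.58 and 1.45 in mdx:Utrn+/- saline and 1.83, 1.72 and 1.69 in mdx:Utrn+/- PB1046. The treatment groups overlapped in mdx and did not in mdx:Utrn+/-. The difference over both genotypes was 0.22 (exact p = 0.110, adjusted p = 0.733). Cox6a2 to Cox6a1 had group means of 4.65 ± 0.46 (SD, n = 3), 4.63 ± 0.61, 5.11 ± 0.31 and 4.79 ± 0.54 in the order saline and PB1046 of mdx, then saline and PB1046 of mdx:Utrn+/-. It differed by -0.17 with treatment (exact p = 0.550) and by 0.31 with genotype (exact p = 0.270). Cox8b to Cox8a, with means of 3.31 ± 0.64, 3.27 ± 0.28, 3.59 ± 0.31 and 3.47 ± 0.65, differed by -0.08 with treatment (exact p = 0.755) and 0.24 with genotype (exact p = 0.390). Atp5g1 to Atp5g3, with means of -1.74 ± 0.37, -1.64 ± 0.44, -1.93 ± 0.32 and -1.77 ± 0.34, differed by 0.13 with treatment (exact p = 0.520) and -0.16 with genotype (exact p = 0.435). Within groups Cox8b to Cox8a ran from 2.71 to 3.99 within mdx saline and from 2.85 to 4.14 within mdx:Utrn+/- PB1046, with the library of little Rn45s the lowest in both.

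**Figure D5:**
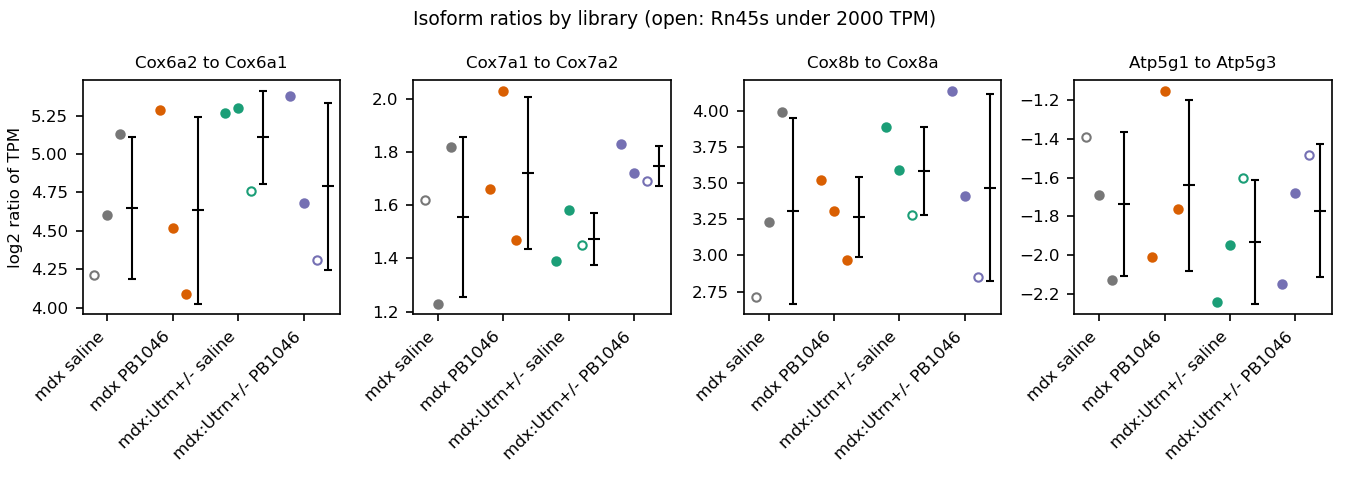
log2 ratio of TPM (y axis) of 4 isoform pairs by group (x axis); points are libraries, open points those with Rn45s under 2000 TPM, and bars are mean ± SD, n = 3. The treatment groups overlap in each genotype for every pair except Cox7a1 to Cox7a2 in mdx:Utrn+/-, and the open points are the lowest of their group for Cox6a2 to Cox6a1 and Cox8b to Cox8a and the highest for Atp5g1 to Atp5g3.

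Of 16 listed symbols for other genes of the same complexes, which the symbol rule does not reach, 4 were tested, and each had a lower scaled mean after PB1046 in mdx. Cyc1, the cytochrome c1 of complex III, had means of 1757 ± 129 TPM (SD, n = 3) in mdx saline, 1488 ± 109 in mdx PB1046, 1734 ± 178 in mdx:Utrn+/- saline and 1723 ± 189 in mdx:Utrn+/- PB1046, with a log2 change of -0.40 (SE 0.23, adjusted p = 0.999) for PB1046 in mdx. Ndufa4, now placed in complex IV, was at 7036, 3482 and 5423 TPM in mdx PB1046 against 6966, 6532 and 6929 in mdx saline (-0.58, SE 0.35, adjusted p = 0.999). Its treated replicate 2 was far below the rest. Usmg5, a small ATP synthase membrane subunit, had a log2 change of -0.53 (SE 0.35), and 2010107E04Rik, another small gene of that complex, -0.22 (SE 0.33).

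Of the factors that build the complexes, 0 passed the adjusted test in any contrast. For PB1046 in mdx 20 of 25 tested complex IV assembly factors had lower scaled means (median -0.17). So did 3 of 5 of complex III (-0.17) and 4 of 4 assembly factors and inhibitor of the ATP synthase (-0.06). Of all genes tested 50.5% did, and 27.4% were lower in unscaled TPM. On that unscaled level Atpaf1 (85.1 against 76.7 TPM), Atpaf2 (34.3 against 31.1) and Tmem70 (122 against 118) had higher means in mdx PB1046 than in mdx saline. Higher unscaled means were also held by Cox10, Cox14, Cox16, Coa7 and Pet117 of the complex IV list, whose scaled means were lower. Atpif1, the inhibitor of the ATP synthase, was at 908, 741 and 601 TPM in mdx saline and 525, 585 and 538 in mdx PB1046 (-0.59, SE 0.27, adjusted p = 0.999). Its 3 treated libraries were all below the saline ones in TPM. At an unadjusted p under 0.05 there were 2 results over the 5 contrasts, both among the 25 complex IV assembly factors. Cox14 had a higher scaled mean in mdx:Utrn+/- than in mdx under saline (0.88, SE 0.34, adjusted p = 0.854). It was 1 of 25, against 2.32% of all genes tested. Cox17, the copper chaperone of complex IV, had a higher scaled mean in mdx:Utrn+/- than in mdx under PB1046 (0.61, SE 0.27, adjusted p = 1.00). It was 1 of 25, against 0.86% of all genes. Cytochrome c and complex II had 4 of 7 lower scaled means for PB1046 in mdx (median -0.14), with Sdhb, the iron-sulfur subunit, at -0.50 (SE 0.28). Of 13 regulators of mitochondrial transcription and biogenesis, 7 had lower and 6 higher scaled means in that contrast (median -0.03). In unscaled TPM every regulator but Ppargc1b (7.24 against 7.48 TPM) had a higher mean in mdx PB1046, where 72.6% of all genes tested did. Esrra, the estrogen-related receptor alpha, stayed at 125 to 158 TPM in all 12 libraries. Ppargc1a, the coactivator PGC-1alpha, was at 21.7, 22.0 and 21.4 TPM in mdx saline, 28.0, 26.2 and 17.5 in mdx PB1046, 24.2, 13.3 and 42.4 in mdx:Utrn+/- saline and 25.5, 17.9 and 23.9 in mdx:Utrn+/- PB1046, and its groups overlapped. Esrrb had an unadjusted p under 0.05 between genotypes under saline (0.61, SE 0.26, adjusted p = 0.854), and Nrf1 in the difference between the 2 responses to PB1046 (-0.59, SE 0.27, adjusted p = 0.999). Each was 1 of 13 regulators, against 2.32% of all genes higher and 1.17% lower in these contrasts.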

How the data were processed

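The data are 12 poly-A RNA libraries of isolated cardiomyocytes; the titles give 4 groups of 3. The deposited table holds 18530 genes on mm10. Its values per library are TPM made by the authors: each library sums to 1000000. It also holds the authors' 6 comparisons (log2 fold change and CPM on a log2 scale, a likelihood ratio score, p-value and false discovery rate, per the file headers). edgeR is named in the submitters' processing notes. Which aligner, counter and gene lengths served is not given in the sources used here. TPM steps gave whole reads (tolerance 0.1 reads) for 100% of values. These recovered reads gave the depth and the reads per gene, and were used for limma-voom. The same steps gave relative gene lengths, set to bases by their commonest match to GENCODE transcript lengths. These inferred lengths served for the median lengths, length correlations, length trends and the choice of transcript for GC content. Every other value of expression rests on TPM, where a gene's precision depends on reads that TPM does not show.

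TPM were divided by trimmed-mean factors (30% of log ratios and 5% of levels trimmed), and log2(scaled TPM + 1) of 12798 genes (at least 1 TPM in 3 libraries) was fitted with limma 3.58.1 in R 4.3.3, with a mean per group, trend and robust settings, and Benjamini-Hochberg adjustment over all genes at 0.05. The fit was run on simulated reads with known changes. Apart from those changes the simulated libraries shared the same mean profile. The simulation therefore does not show how the fit handles libraries that differ in composition, GC content or length trends. Trends over length and level were removed by lowess (span 0.3). The deposited columns hold starts counted from 0, given here plus 1. All of the 40 symbols found in GENCODE M21 overlapped the gene of that name on the same strand. There, 4 of the 41 genes have a pseudogene of their own name, with which reads may be shared (Uqcrh, Atp5c1, Atp5k and Atp5l). Pseudogenes under other names were not looked for, so reads of other members may be shared too. Promoters are from RefSeq. GC content is that of the GENCODE transcript nearest in length.

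The members and gene lists were chosen with earlier results of these data known. Genes named with values are isoform sets, core subunits, the 3 smallest p-values per complex and contrast, the 2 highest and 2 lowest members per complex, members at the edge of the rule, up to 3 genes per other list and contrast, Utrn and Rn45s; Esrra, Ppargc1a, Cox7b and genes of the comparison by Rn45s were picked after their values were seen. Alternatives were other scaling, pseudocount, filters, libraries, terms and limma-voom.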

Additional observations from a re-analysis of the deposited data

How the results depend on the processing

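No member was called under any alternative of any contrast, limma-voom on recovered reads and each library left out included: all 129 counts of members called stayed at 0. Of the medians of a complex, 372 moved by less than the spread between libraries and 15 by more. Removing the trends over gene length and level gave medians for PB1046 in mdx of 0.05 (complex III) and -0.06 (complex IV), for mdx:Utrn+/- over mdx of -0.15 under saline (complex IV), and under PB1046 of -0.02, 0.09 and 0.09 (complex III, complex IV, ATP synthase). Without scaling the median of all genes moved to 0.14 (mdx) and 0.15 (mdx:Utrn+/-) for PB1046 and to -0.20 between genotypes, and complex IV stood at -0.15 and 0.28 between genotypes under saline and PB1046. The 3 lowest library numbers belong to replicate 1 of mdx PB1046, of mdx:Utrn+/- PB1046 and of mdx:Utrn+/- saline. Without them complex IV stood at -0.73 for PB1046 in mdx. In that contrast only mdx PB1046 replicate 1 was dropped, so the value repeats that of leaving out this library alone. With a cardiomyocyte marker term, added after seeing the data, the medians between genotypes under PB1046 were 0.29 (complex IV) and 0.15 (ATP synthase). Leaving out each library in turn gave complex IV medians of -0.73 to -0.35 for PB1046 in mdx, -0.20 to 0.13 for PB1046 in mdx:Utrn+/- and 0.37 to 0.78 between genotypes under PB1046; the cause was not tested. The genotype difference of the Cox7a1 to Cox7a2 ratio was 0.01 without the 3 libraries of little Rn45s, and -0.11 to 0.05 with each library left out, where Cox8b to Cox8a with treatment ran from -0.25 to 0.09. Same-numbered libraries did not deviate together (correlations -0.44 to 0.49, median 0.04), so the numbers were not taken as pairs; with the replicate block 0 members were called and the medians for PB1046 in mdx were -0.30, -0.47 and -0.35.

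With 3 libraries a group, members' changes are known to about 0.66 log2 units on either side. Cox6b2 and Cox4i2 rest on as few as 5 and 15 reads in a library.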
